A study of Mus musculus with 18 samples.

Results

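The replication-dependent histone genes supply the core histones H2A, H2B, H3 and H4 that package newly copied DNA, and they lie in clusters of many near-identical copies. They were examined here in mouse oocytes, where 61 of the 55291 genes of the count table matched by symbol. Of these, 9 carry the older symbols that start with Hist1h, and 52 carry the current cluster symbols (H2ac, H2bc, H3c and H4c with a number). Both sets name one family under older and newer nomenclature, so they were treated as a single set, and the reads of the 9 are given separately where they matter. The members comprise 20 H2A, 17 H2B, 12 H3 and 12 H4 genes, 51 on chromosome 13 and 10 on chromosome 3. RefSeq lists 58 as protein-coding and 3 as pseudogenes. The linker histone genes H1f1 to H1f6 and 4 further relatives with other current symbols (H2aw, H2bu1-ps, H2bu2 and H4f16) fall outside both symbol patterns and are not members.

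The oocytes came from 5-week-old mice homozygous for a floxed Vps34 allele, the gene also called Pik3c3, which encodes the class III phosphatidylinositol 3-kinase. The ZcKO mice carried in addition a Zp3-Cre transgene, whose promoter is active in growing oocytes, so that surrounding follicle cells keep the floxed allele intact, and the controls carried the same floxed alleles without the Cre transgene. Germinal vesicle (GV) oocytes, fully grown and arrested before meiosis resumes, were taken 46 h after PMSG, and MII oocytes, ovulated and arrested at the second meiotic metaphase, 14 h after hCG. Each of the 4 groups (GV control, GV ZcKO, MII control, MII ZcKO) had 3 Smart-seq2 libraries of 5 pooled oocytes, and the other 6 of the 18 samples in the series, from embryos, were not analysed here. Nothing in the labels says that libraries came from separate mice, so p-values measure the spread between libraries of pooled oocytes, which may be technical.

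In dividing cells these genes are transcribed in S phase, and their mRNAs end in a short conserved stem-loop in place of a poly(A) tail. The protein SLBP, encoded by Slbp, binds the stem-loop and is needed for processing, translation and stability of the mRNA. A growing oocyte does not replicate its DNA, but it stores histone mRNA and protein for the embryo. Smart-seq2 starts reverse transcription at poly(A) tails, so an mRNA without such a tail is captured poorly, and the counts below describe the RNA that this priming reached. In a bulk library, a lower level can reflect fewer cells with the RNA, less RNA per cell or poorer capture by this priming. These cannot be told apart.

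The 12 libraries held 2609783 to 4696626 reads counted to genes, and levels are given as CPM, the counts scaled to a common library total. Pik3c3 was at 35.5, 28.8 and 25.8 CPM in the GV control libraries and at 1.56, 1.65 and 2.67 CPM in the GV ZcKO libraries, and at 10.6, 21.4 and 17.1 CPM against 5.36, 2.42 and 3.21 CPM at MII. The groups did not overlap at either stage. The 15 oocyte marker genes in the table summed to 38130 to 56026 CPM at GV and 18141 to 22359 CPM at MII, none of them at 0 in a group. The 23 markers of cumulus and granulosa cells, the follicle cells around the oocyte, summed to 468 to 564 CPM in GV control, 368 to 631 in GV ZcKO, 1397 to 1668 in MII control and 1069 to 2600 in MII ZcKO, and Serpine2 made up 65.9% of that sum over the 12 libraries. Of these markers, Ptx3 and Tnfaip6 had no read in either GV group, Foxl2 none in GV ZcKO, Amh none in either MII group, Amhr2 none in MII control and Fshr none in MII ZcKO. The 12 blood and immune markers summed to 47.3 to 79.2 CPM at GV and 3.94 to 8.15 CPM at MII, with C1qb as 97.1% of it. The S-phase genes, 27 in all, summed to 2267 to 2743 CPM over both stages, a sum that hides changes in both directions. In controls edgeR called 9 higher and 11 lower at MII (adjusted p under 0.05), against 30.1% and 33.8% of all genes. In ZcKO oocytes it called 8 higher and 12 lower, against 29.5% and 34%. Whether follicle cell RNA contributed to any histone gene's change was not tested. Reads counted to genes were 4.35 to 13.1 times those counted to the added ERCC spike-in RNAs at GV and 1.51 to 2.42 times at MII. Scaling by ERCC totals in place of edgeR's TMM factors put the median log2 change of all genes from GV to MII at −1.72 in controls and −2.37 in ZcKO oocytes, against 0.01 and −0.04 with TMM. For the 18 cumulus and granulosa markers tested, the medians were 0.48 and 0.79 by ERCC totals, and 2.12 and 3.01 with TMM. With TMM, edgeR called 12 of these 18 higher and 2 lower at MII in controls (adjusted p under 0.05). In ZcKO oocytes it called 14 higher and 0 lower. The shares of all genes called higher were 30.1% and 29.5%. Every change named below is relative to the other genes unless ERCC scaling is named.

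The annotated transcripts of the members differ in whether the stem-loop is present and how far they run past it. Whether either feature bears on the counts was not tested. GENCODE vM21, on the mm10 assembly (GRCm38), annotates a transcript for 60 of the 61 members, and 37 hold the histone stem-loop on the transcript strand. Only 51 of all annotated genes hold a match, 0.0920% of them. Among the 37 members, 7 distinct stem-loop sequences occur, of which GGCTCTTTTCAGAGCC is shared by 21 H2A, H2B and H3 genes and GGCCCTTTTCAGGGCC by 6 H4 genes. The sites of 6 members whose counts are described further on are printed as DNA, 5′ to 3′, with the stem-loop in capitals and 5 flanking bases on each side.
H4c8: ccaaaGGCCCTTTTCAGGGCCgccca
H2bc12: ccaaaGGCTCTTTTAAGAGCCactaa
H4c9: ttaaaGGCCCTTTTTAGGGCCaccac
H3c7: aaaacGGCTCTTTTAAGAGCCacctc
H4c4: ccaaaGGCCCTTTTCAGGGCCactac
H2ac6: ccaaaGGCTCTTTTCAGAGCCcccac
H4c8 and H4c4 have the same stem-loop letters, as do H2bc12 and H3c7. They differ in what follows: the annotated transcript ends 30 bases after the stem-loop in H2bc12 and 46 bases after it in H4c8, but 330 bases after it in H4c9, 365 in H3c7, 454 in H4c3, 770 in H4c4 and 2010 in H2ac6. No annotated transcript of the remaining 23 members holds a stem-loop. For 11 of these 23, H2ac1 and H2bc1 among them, the annotation holds only the coding sequence and stop codon, so it does not say how their mRNAs end. Another 10 have annotated bases outside the coding sequence, and 2 have no annotated coding sequence. H2bc4 is among these 10: its single annotated transcript has 1156 bases in 2 exons and no stem-loop match.

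Most members had few or no reads. In all 12 libraries together, 16 members had 0 reads, which allows up to 0.0738 CPM each (3 counts of the summed library totals, counting error only), and 22 had 1 to 9 reads. Another 17 members had 10 to 99 reads and summed to 695 reads. Only 6 members had 100 or more, and they summed to 5709 reads: H2bc4, H2ac1, H3c7, H4c4, H4c8 and H2bc12. The 9 members with Hist1h symbols together had 1 to 11 reads per library at GV and 1 or 2 at MII. The 10 genes on chromosome 3 had 76 reads and the 51 on chromosome 13 had 6397.

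Copies that share sequence tended to have fewer reads. How the authors' counting treated reads that map to several places is not given in the sources used here, so every count of a member with near-identical copies is uncertain. Of the 50-base stretches in a member's annotated transcripts, the median share found in no other gene's transcript was 6.93% for the 15 members with 0 reads and a transcript, 42.5% for those with 1 to 9 reads, 50.5% for those with 10 to 99 and 61.8% for the 6 with 100 or more. Across 60 members the share and log10(reads + 1) had a Spearman rho of 0.62 and a Pearson r of 0.58, given as a description because the members share libraries and sequence. Among the 6 with most reads, H2bc12 stands out in this relation, with 112 reads and 25.8% unique stretches, whereas H4c4 had 89.8% and H2bc4 69.4%. Others also departed from it: Hist1h2bq had 10 to 99 reads with 2.68% unique stretches, and H2bc21 had 1 to 9 reads with 100%. Exons of 24 members, 19 of them H2A genes, are covered by exons of another gene in part or, for 5 of them, in full, and H2ac1 and H2ac6 are among the 24.

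**Figure D1:**
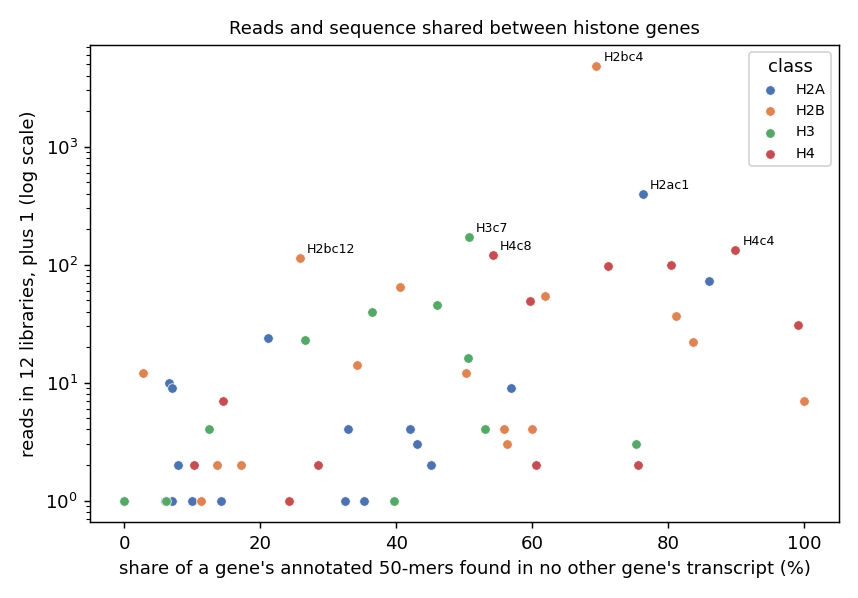
Reads of each of 60 histone genes over the 12 libraries, plus 1, on a log axis, against the percentage of its annotated 50-base stretches found in no other gene's transcript, with color for the histone class. The 6 named genes have 100 or more reads, and genes with little unique sequence lie mostly at the bottom.

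H2bc4, an H2B gene at chr13:23684199-23692480 on the plus strand, supplied most of the family's reads. Its counts were 455, 748 and 934 in the GV control libraries, 472, 622 and 532 in GV ZcKO, 117, 174 and 240 in MII control, and 151, 186 and 154 in MII ZcKO. Each GV library was above each MII library, and the control and ZcKO ranges overlapped at both stages. This gene alone held 71.4% to 81.2% of the family's reads at GV and 50.2% to 68.2% at MII. Its mean level was 183 ± 25.6 CPM in GV control, 165 ± 16.2 in GV ZcKO, 49.9 ± 16.8 in MII control and 56.4 ± 1.49 in MII ZcKO oocytes (SD, n = 3 each). Per kilobase of exon, H2bc4 stood at 159 CPM in GV controls, followed among members by H2ac1 at 22 and H4c8 at 11.6.

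From GV to MII H2bc4 fell by 1.76 ± 0.22 on the log2 scale in controls (edgeR quasi-likelihood fit of all 12 libraries, SE, Benjamini-Hochberg adjusted p = 1.37e-06) and by 1.41 ± 0.22 in ZcKO oocytes (adjusted p = 1.69e-05). The test of all 11607 genes called 63.9% of them in controls, 30.1% higher and 33.8% lower at MII, and 63.5% in ZcKO oocytes, 29.5% higher and 34% lower. Against that background, 9 members had enough reads for the test and 4 of these 9 were called lower in controls, none higher. In ZcKO oocytes 3 were called lower and 1 higher. H4c8, H2bc12 and H4c9 passed the filter on low counts through their GV libraries, so the 9 do not stand for all 61 genes. The calls of H4c8, H2bc12 and H4c9 are for the same reason no independent support for a fall. The whole family's level moved with H2bc4, from 200.6 to 247.6 CPM over the GV libraries to 63.5 to 97.3 over the MII libraries. Without H2bc4 the family was at 41.0 to 61.6 CPM at GV and 28.4 to 39.5 at MII, so the sum of the remaining 60 genes also lay lower at MII, by a smaller ratio. This describes the sum and not each gene: 16 had no read, and H2ac1 was called higher at MII in ZcKO oocytes. With ERCC totals as library sizes, 8 of the 9 tested members were called lower in each genotype, against 70.1% of all genes tested in controls and 88% in ZcKO oocytes.

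**Figure D2:**
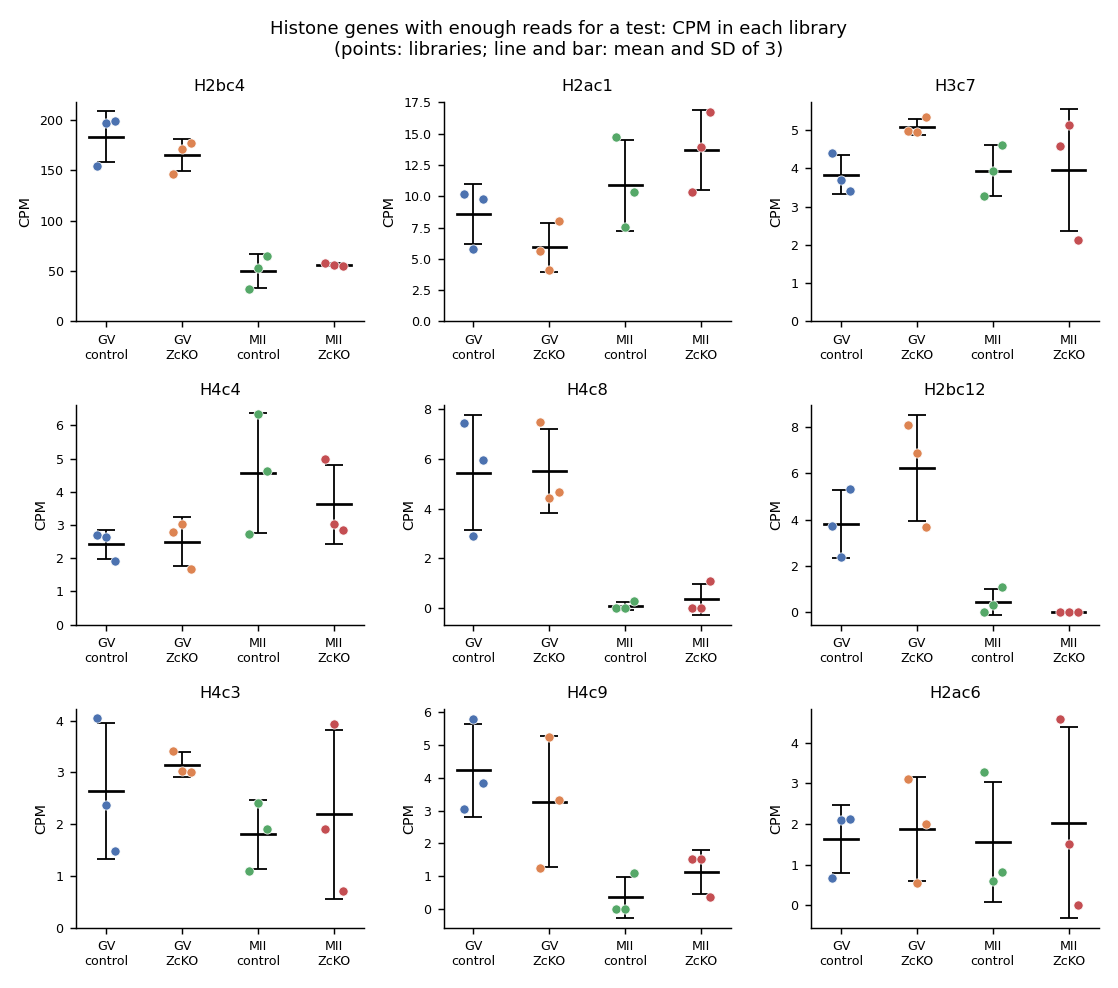
CPM of the 9 histone genes with enough reads for the GV to MII test, 1 panel per gene with its own axis from 0, with a point for each library and the mean and SD of the 3 libraries of each group. H2bc4, H4c8 and H2bc12 separate the GV libraries from the MII libraries in both genotypes, whereas H3c7, H4c3 and H2ac6 overlap.

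Among the other H2B genes, H2bc12 (chr13:22035821-22036320) had 11, 9 and 25 reads in GV control, 26, 25 and 11 in GV ZcKO, 0, 1 and 4 in MII control and none in the 3 MII ZcKO libraries. It fell by 2.82 ± 0.75 on the log2 scale in controls (edgeR adjusted p = 0.00346). In ZcKO oocytes the change was called as well (edgeR adjusted p = 5.71e-05), and with 0 reads at MII its size is a lower bound: the level was at least 18.3-fold lower, taking 3 counts over the group as the floor. Without MII control library 3, which held 4 of the 5 MII control reads, the change in controls was −4.29. H2bc12 passed the filter on low counts through its GV libraries, so its calls are given as a description. Next among H2B genes by reads came H2bc11, with 63 reads in all, between 1 and 8 per library, too few for the test. H2bc1 had 25 reads over the GV control libraries, of which 17 came from library 1, and 5 over the MII control libraries. In ZcKO oocytes it had 5, 4 and 1 reads at GV and 3, 6 and 4 at MII. The edgeR fit without the filter on low counts gave H2bc1 log2 values of −2.20 in controls (adjusted p = 0.0379) and 0.60 in ZcKO oocytes (adjusted p = 0.652), and their difference of 2.80 was not called. H2bc4, H2bc12 and H2bc1 each have an H2A gene close by on the opposite strand.

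H2A reads came mainly from H2ac1 (chr13:23934437-23934913), which encodes the H2A form known from testis and oocytes. Its counts were 30, 22 and 46 in GV control, 18, 15 and 24 in GV ZcKO, 54, 25 and 38 in MII control and 27, 46 and 47 in MII ZcKO. As CPM, the MII ZcKO libraries (10.3, 13.9 and 16.7) lay above the GV ZcKO libraries (4.13 to 8), while the control stages overlapped. H2ac1 rose by 1.37 ± 0.37 on the log2 scale from GV to MII in ZcKO oocytes relative to all genes (edgeR adjusted p = 0.00366), and with ERCC totals as library sizes the sign turned, to −0.96. In controls the log2 difference was 0.51 ± 0.36 (edgeR adjusted p = 0.22). The other leading H2A genes were H2ac6, with 0 to 12 reads per library and log2 differences of 0.05 ± 0.88 in controls and 0.21 ± 0.88 in ZcKO oocytes, and H2ac11, with 23 reads in all and 0 to 4 per library. Neither difference of H2ac6 passed the test (edgeR adjusted p = 0.962 and 0.846).

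Of the H3 genes, H3c7 (chr13:23544052-23544954) had the most reads: 13, 14 and 16 in GV control, 16, 18 and 16 in GV ZcKO, 12, 13 and 17 in MII control and 12, 17 and 6 in MII ZcKO. As CPM, it ranged from 3.41 to 4.40 in GV control, 4.96 to 5.33 in GV ZcKO, 3.27 to 4.62 in MII control and 2.14 to 5.15 in MII ZcKO. H3c7 was not called between genotypes at either stage and had no unadjusted p under 0.05 there (edgeR). The log2 difference from GV to MII was 0.19 ± 0.40 in controls and −0.22 ± 0.40 in ZcKO oocytes, and neither passed the test (edgeR adjusted p = 0.699 and 0.653). H3c8 had 11, 4 and 8 reads in GV control, 11, 4 and 1 in GV ZcKO, and 0 to 2 in each MII library. H3c15 had 39 reads in all, 0 to 9 per library. H3c8 and H3c15 did not pass the filter on low counts. In the same fit without that filter, 4 more members were called lower at MII in controls, H2bc1, H3c6, H3c8 and H4c1, and 1 more, H4c1, in ZcKO oocytes. In all, 8 of the 45 members tested in that fit were called lower in controls and 4 in ZcKO oocytes. Of the 26685 genes in it, 17% were called lower in controls and 16.5% in ZcKO oocytes.

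Among the H4 genes, H4c8 (chr13:23531044-23531478) had 22, 11 and 28 reads in GV control and 24, 16 and 14 in GV ZcKO, but 0, 0 and 1 in MII control and 0, 0 and 3 in MII ZcKO. Over the summed libraries its CPM at GV was 56.8 times that at MII in controls (95% counting interval 9.83 to 2281.5) and 15.9 times in ZcKO oocytes (5.17 to 79.7). The edgeR fit gave a log2 change of −5.26 ± 0.95 in controls (adjusted p = 9.71e-05) and −3.72 ± 0.82 in ZcKO oocytes (adjusted p = 6.6e-04). H4c8 passed the filter on low counts through its GV libraries, so these values are given as a description. The size rests on few MII reads: without MII control library 3 or MII ZcKO library 3 no read remained in that group, and without MII ZcKO library 2 the log2 change was −3.09. H4c4 (chr13:23581568-23581969) did not share this pattern, with 8, 10 and 9 reads in GV control, 9, 11 and 5 in GV ZcKO, 10, 21 and 17 in MII control and 13, 10 and 8 in MII ZcKO. Its log2 difference was 1.04 ± 0.46 in controls (edgeR adjusted p = 0.0545, or 0.033 without MII control library 1) and 0.63 ± 0.48 in ZcKO oocytes (adjusted p = 0.257), both negative under ERCC scaling. H4c4 and H4c8 carry the same stem-loop letters, as printed above.

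H4c9 (chr13:22040960-22041362) had 9, 22 and 18 reads in GV control and 0, 0 and 4 in MII control, and it fell by 3.27 ± 0.84 on the log2 scale (edgeR adjusted p = 0.00225), with no MII control read left without library 3. In ZcKO oocytes it had 4, 19 and 10 reads at GV and 4, 5 and 1 at MII, a log2 difference of −1.36 ± 0.75 that did not pass (edgeR adjusted p = 0.118). H4c9 passed the filter on low counts through its GV libraries, so its call in controls is given as a description. H4c3 (chr13:23698084-23698458) had 7 to 12 reads in each GV library and 2 to 13 in each MII library, with log2 differences of −0.37 ± 0.58 and −0.35 ± 0.57 in controls and ZcKO oocytes (edgeR adjusted p = 0.589 and 0.604). H4c1 had 5, 10 and 14 reads in GV control against 0, 1 and 2 in MII control.

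**Figure D3:**
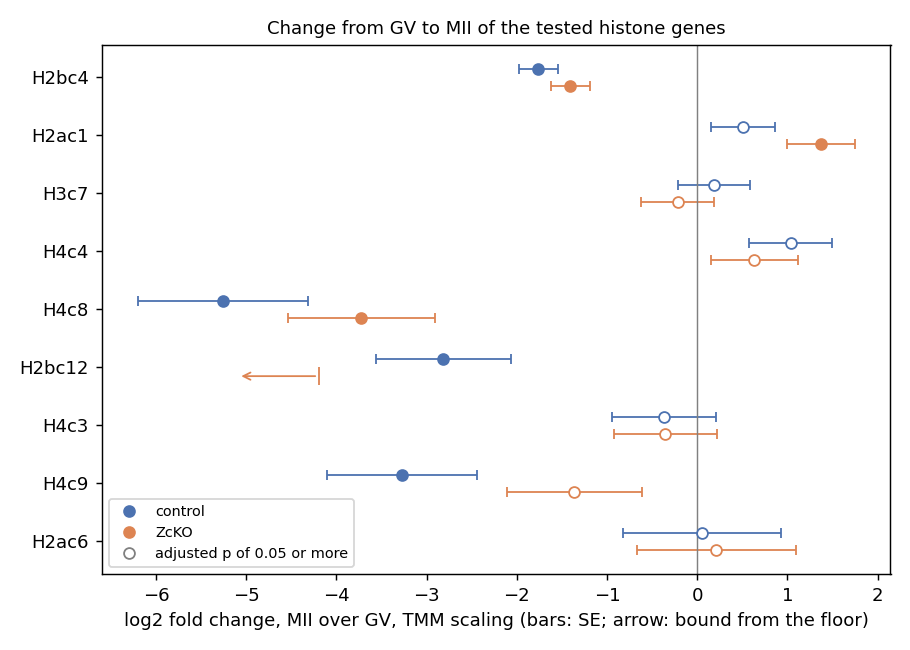
Log2 fold change from GV to MII under TMM scaling, with SE, for the 9 tested histone genes in controls and ZcKO oocytes, where filled points passed an adjusted p of 0.05 and the arrow marks the lower bound for H2bc12, which had no read in MII ZcKO. H2bc4, H4c8 and H2bc12 lie below 0 in both genotypes, and H2ac1 lies above 0 with a called rise in ZcKO oocytes.

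Members were also summed by how their annotated transcripts end. The division at 200 bases past the stem-loop was made after the values had been seen, so the sums carry no test. The 25 genes whose transcript ends within 200 bases of the stem-loop summed to 20.6 ± 4.75 CPM in GV control and 3.96 ± 1.31 in MII control, and to 19.2 ± 7.56 in GV ZcKO and 4.39 ± 1.74 in MII ZcKO (SD, n = 3 each). These are ratios of GV to MII of 5.19 and 4.37. Every GV library of this set, the lowest at 12 CPM, lay above every MII library, the highest at 5.75 CPM. The 12 genes whose transcript goes on for more than 200 bases summed to 19.8 ± 2.18 and 14.7 ± 0.66 CPM in controls and to 20.4 ± 0.999 and 15.5 ± 5.43 CPM in ZcKO oocytes, ratios of 1.35 and 1.31. In controls the GV libraries of these genes, the lowest at 17.9 CPM, also lay above the MII libraries, the highest at 15.4 CPM. MII ZcKO library 1, at 20.3 CPM, reached into the GV range. H4c9, which fell in controls, belongs to this second set. So does H3c6, with 4, 5 and 1 reads in GV control and none in MII control, which was called lower in controls without the filter on low counts (edgeR adjusted p = 0.0194). H2bc9, also in this set, went from 21 reads over the GV control libraries to 4 over the MII control libraries and was not called in that fit (edgeR adjusted p = 0.0861). H4c8 and H2bc12 weigh heavily in the first set: without them its ratio was 3.32 in controls and 1.85 in ZcKO oocytes. The 22 genes with no annotated stem-loop other than H2bc4 summed to 12.2 ± 4.01 CPM at GV and 11.5 ± 3.14 at MII in controls. In ZcKO oocytes they summed to 7.22 ± 1.74 and 16.3 ± 2.92 CPM. Most of these sums came from H2ac1. Without H2ac1 the other 21 summed to 3.61 ± 2.54 and 0.664 ± 0.582 CPM in controls and to 1.31 ± 0.284 and 2.66 ± 0.352 in ZcKO oocytes. Their ratios of GV to MII were 5.43 and 0.49, on 0 to 19 reads per library. With H2bc4 and H2ac1 included, all 23 had ratios of 3.19 and 2.37. A fall was therefore not particular to the first set. With ERCC totals as library sizes the ratios of the first set were 14.8 in controls and 23.1 in ZcKO oocytes, and those of the second 4.09 and 5.86.

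**Figure D4:**
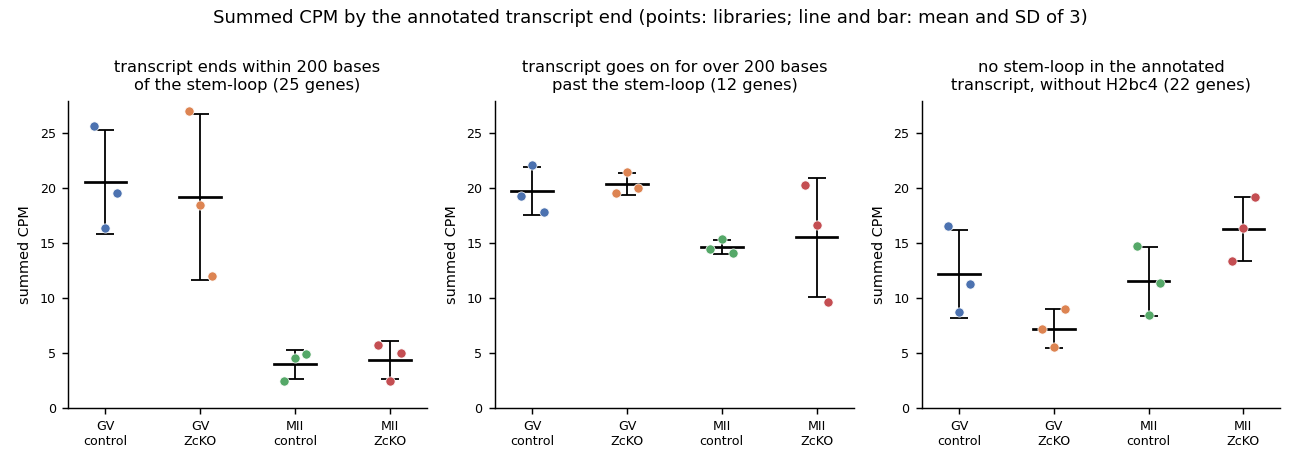
Summed CPM per library of the 25 genes whose transcript ends within 200 bases of the stem-loop, the 12 whose transcript goes on for over 200 bases, and the 22 with no annotated stem-loop apart from H2bc4, with the mean and SD of 3 libraries per group. In the first set each GV library lies above each MII library. In the second set this also holds in controls, whereas MII ZcKO library 1 reaches into the GV range.

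No replication-dependent histone gene was called between ZcKO and control oocytes at either stage. At GV, 9 of the 10911 genes tested were called between ZcKO and control (0.0825%), and of the 7 histone genes tested none was called by edgeR or DESeq2 or had an unadjusted p under 0.05. Their log2 differences, ZcKO over control, were −0.21 ± 0.18 for H2bc4, −0.59 ± 0.35 for H2ac1, 0.65 ± 0.43 for H2bc12, 0.37 ± 0.35 for H3c7, 0.27 ± 0.47 for H4c3 and −0.42 ± 0.50 for H4c9. H4c8 differed by −0.0017 ± 0.41. At MII, none of 9677 genes was called (0%, with 872 at an unadjusted p under 0.05 and 4 called by DESeq2). Pik3c3 itself, at −2.19 ± 0.39 there, was not called by edgeR (adjusted p = 0.53) but was by DESeq2 (adjusted p = 0.0142) and by edgeR without the filter on low counts (adjusted p = 1.54e-04). None of the 4 histone genes tested there was called by either tool or had an unadjusted p under 0.05: H2bc4 differed by 0.15 ± 0.23, H2ac1 by 0.28 ± 0.35, H3c7 by −0.02 ± 0.45 and H4c4 by −0.36 ± 0.46. For the genes with few reads these errors leave room for sizeable differences. H2bc4, the gene with the most reads, has the smallest error.

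The change from GV to MII was also compared between genotypes by the interaction term, which called 1 of 11607 genes (0.00862%) and none of the 9 histone genes by edgeR or DESeq2. Of these, 1 gene had an unadjusted p under 0.05, H2bc12, whose counts at MII were 5 and 0 over the groups (edgeR adjusted p = 0.875). For H2ac1 the difference of the changes was 0.86 ± 0.51 (edgeR adjusted p = 0.875), for H4c9 it was 1.91 ± 1.19 (edgeR adjusted p = 0.875) and for H2bc4 it was 0.35 ± 0.30 (edgeR adjusted p = 0.89). The called rise of H2ac1 in ZcKO oocytes and the called fall of H4c9 in controls were therefore not shown to differ between the genotypes.

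The upstream sequences of the H2A genes that face H2bc4 and H2ac1's neighbour are shown because paired H2A and H2B genes share the gap between them while their reads differ widely. H2ac6 and H2bc4 are 239 bases apart and had 72 and 4785 reads over the 12 libraries. H2bc1 and H2ac1 are 280 bases apart and had 53 and 392 reads, and H2ac12 and H2bc12, 177 bases apart, had 1 and 112. In the first and last pair the H2B gene had more reads, and in the middle pair the H2A gene did. The share of 50-base stretches found in no other gene's transcript was 85.9% for H2ac6 and 69.4% for H2bc4. It was 61.8% for H2bc1 and 76.25% for H2ac1, but 7.87% for H2ac12 and 25.8% for H2bc12. With the treatment of multi-mapping reads unknown, whether the RNA levels of paired genes differ was not tested. RefSeq promoter sequences (GRCm38.p6) were given for 53 members, and the first 250 bases of these, up to the annotated start, are printed 5′ to 3′ for H2ac6 (chr13:23683960-23684209, minus strand, covering the gap to H2bc4) and H2ac1 (chr13:23934187-23934436, plus strand). Capitals mark matches on either strand to the octamer ATTTGCAT, to CCAAT and to TATAAA, none of which overlap.
H2ac6: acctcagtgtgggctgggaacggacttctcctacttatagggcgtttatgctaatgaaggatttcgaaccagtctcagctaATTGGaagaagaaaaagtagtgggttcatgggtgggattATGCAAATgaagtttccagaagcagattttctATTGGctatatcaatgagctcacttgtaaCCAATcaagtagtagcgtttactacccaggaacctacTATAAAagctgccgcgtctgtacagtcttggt
H2ac1: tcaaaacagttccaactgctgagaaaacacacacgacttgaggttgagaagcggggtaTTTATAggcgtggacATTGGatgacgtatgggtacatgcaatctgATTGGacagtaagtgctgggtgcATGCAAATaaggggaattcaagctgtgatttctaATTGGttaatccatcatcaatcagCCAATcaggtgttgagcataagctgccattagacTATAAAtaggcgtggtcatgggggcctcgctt
Both gaps hold 1 octamer and TATAAA. In the full windows of 300 bases, the octamer occurred in 13 of the 54 promoter entries of members, 7 of 16 for H2B and 6 of 17 for H2A but 0 of 10 for H3 and 0 of 11 for H4, and in 1.74% of all 32851 promoters. CCAAT occurred in 46 of the 54 and in 37.4% of all promoters, and TATAAA in 30 of the 54 and in 13.6%. A match is a description of these letters, not a measured binding site.

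Genes for the machinery around histone mRNA were called from GV to MII in both directions, and none was called between genotypes or in the interaction by edgeR or DESeq2. Of all genes tested, 63.9% were called from GV to MII in controls (30.1% higher, 33.8% lower) and 63.5% in ZcKO oocytes (29.5% higher, 34% lower). Of 27 tested genes for histone mRNA processing and decay, 11 were called higher and 7 lower at MII in controls, and 10 and 7 in ZcKO oocytes, with median log2 changes of 0.41 and 0.34 against 0.01 and −0.04 over all genes tested. Slbp, the stem-loop binding protein gene, stood at 1764, 1656 and 1722 CPM in GV control, 942.2, 1486 and 1895 in GV ZcKO, 6424, 3231 and 4118 in MII control and 3286, 3360 and 3043 in MII ZcKO. Each MII library lay above each GV library. Slbp rose relative to all genes by 1.59 ± 0.26 on the log2 scale in controls and 1.32 ± 0.26 in ZcKO oocytes (edgeR adjusted p = 3.18e-05 and 2.01e-04), but under ERCC scaling the differences were −0.23 and −0.92.

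Other members of that list moved in both directions. Casp8ap2 (FLASH), which acts in histone pre-mRNA cleavage, and Tut7, a terminal uridylyltransferase, rose relative to all genes by 1.51 and 1.46 in controls and by 1.68 and 1.53 in ZcKO oocytes, and each sign turned under ERCC scaling. Tut4, a related enzyme, rose by 1.91 ± 0.65 in ZcKO oocytes (edgeR adjusted p = 0.0159), a call lost without GV ZcKO library 2 or 3 or MII ZcKO library 1 (adjusted p of 0.0563, 0.0662 and 0.308) and turned to −0.43 by ERCC scaling. Without GV ZcKO library 1 its change was 2.58. Lsm10, a subunit of the U7 small nuclear ribonucleoprotein that directs cleavage, changed by −3.83 on the log2 scale in controls and −3.63 in ZcKO oocytes, a fall in both. Pnldc1, an exonuclease gene, also fell (−3.57 and −3.91), as did Ctif, which acts in cap-dependent translation (−1.94 and −1.66). Whether Pnldc1 acts on histone mRNA was not tested, so its place in this list is uncertain. Without MII control library 2, the change of Pnldc1 in controls was −4.53.

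Many replacement histones can be made outside S phase from polyadenylated mRNAs, though this need not hold for each gene listed here, H2ax included. H1f8, the oocyte linker histone, stood at 8750 ± 339 CPM in GV control, 8104 ± 508 in GV ZcKO, 11339 ± 2262 in MII control and 9407 ± 432 in MII ZcKO (SD, n = 3 each). Its log2 rise of 0.53 ± 0.19 relative to all genes in controls (edgeR adjusted p = 0.0215) was lost without GV control library 1 or 3 or MII control library 1 (adjusted p of 0.0577, 0.0666 and 0.15), in the 6 control libraries alone (0.0544) and without the filter on low counts (0.0846), and was −1.25 under ERCC scaling. H3f3b, which encodes the variant H3.3, was at 1842 ± 213 CPM in GV control and 3463 ± 1060 in MII control, a log2 rise relative to all genes of 1.08 ± 0.23 in controls and 1.05 ± 0.23 in ZcKO oocytes that turned negative under ERCC scaling. H2ax, the H2A variant phosphorylated at DNA breaks, fell from 140 ± 8.38 to 24.0 ± 1.15 CPM in controls and from 148 ± 10.8 to 20.6 ± 1.49 in ZcKO oocytes, log2 changes of −2.40 ± 0.19 and −2.70 ± 0.19 (edgeR adjusted p = 4.16e-09 and 1.47e-09).

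Of the 11 replacement histone genes tested, 4 were called higher and 4 lower at MII in controls, and 3 and 4 in ZcKO oocytes, against 63.9% and 63.5% of all genes called in either direction. H2az2, an H2A.Z gene, fell in both genotypes (log2 changes of −1.90 and −1.78). H2az1, the other H2A.Z gene, rose relative to all genes by 1.20 ± 0.44 in controls and 2.85 ± 0.47 in ZcKO oocytes, which under ERCC scaling became −0.49 and 0.62, and its change in ZcKO oocytes was 1.97 without MII ZcKO library 1. Its call in controls was lost without any 1 of 6 libraries (GV control 1 and 3, GV ZcKO 1 and 3, MII control 1 and 2), with an edgeR adjusted p between 0.0647 and 0.106. Cenpa, the centromeric H3 variant, rose relative to all genes by 0.87 and 0.66, and both signs turned under ERCC scaling. H1f10 fell by 3.10 ± 1.05 in controls, a call lost without GV control library 1 or MII control library 2 or 3 (edgeR adjusted p of 0.0535, 0.06 and 0.0688), and had no read in MII ZcKO. Both of its MII control reads came from library 1.

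**Figure D5:**
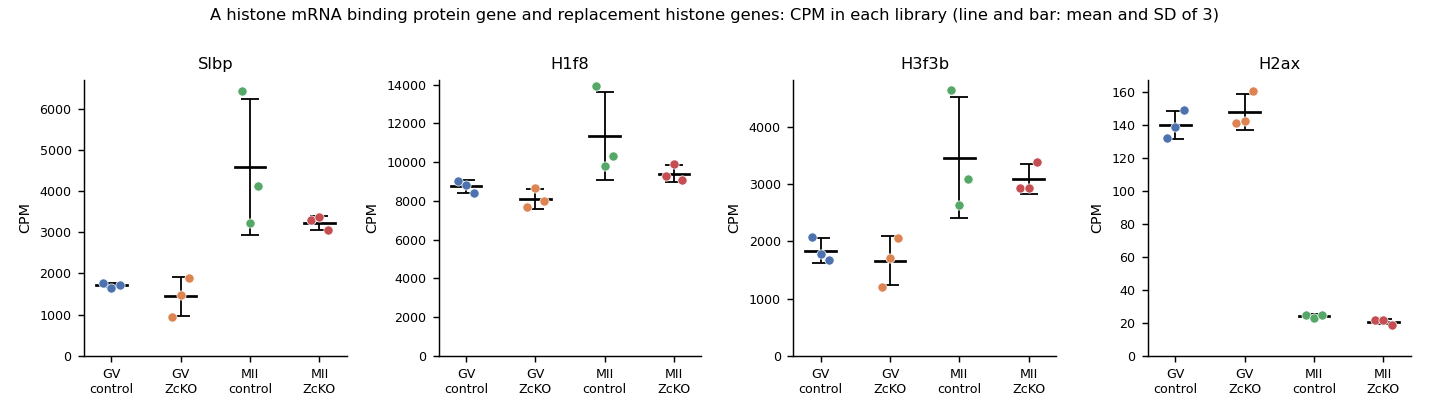
CPM in each library of Slbp and of the replacement histone genes H1f8, H3f3b and H2ax, with points for libraries and the mean and SD of 3 per group on axes from 0. Slbp and H3f3b lie higher and H2ax lower in every MII library than in any GV library.

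Among 29 histone chaperone genes tested, 14 were called higher and 3 lower at MII in controls, and 11 and 3 in ZcKO oocytes, against 30.1% higher and 33.8% lower of all genes in controls and 29.5% and 34% in ZcKO oocytes. Chaf1b, a subunit of the assembly factor that acts at replication forks, fell in both genotypes (log2 changes of −4.67 and −3.88), as did Ipo4, which imports H3 and H4 (−3.13 and −2.69), and Npm2, the oocyte nucleoplasmin (−1 and −0.83). The change of Chaf1b was −5.79 without MII control library 3 and −4.51 without MII ZcKO library 1. Asf1b, an H3 and H4 chaperone, rose relative to all genes by 1.61 in controls, and Atrx and Nap1l1 by 1.30 each, whereas ERCC scaling gave −0.18, −0.41 and −0.47. In ZcKO oocytes the largest called rises were those of Supt16, a subunit of FACT, and Set, by 1.46 and 1.45, with Asf1b at 1.24, and ERCC scaling gave −0.86, −0.92 and −0.95. With ERCC totals no gene of these 3 lists was called higher in either genotype. The relatives H2aw and H2bu2, outside the symbol patterns, were called lower at MII in both genotypes, H2aw with log2 changes of −4.45 in controls and −3.15 in ZcKO oocytes, and H2bu2 with −1.74 and −1.98. The linker histone genes H1f1 and H1f2 were not called in either genotype by edgeR, with log2 differences of 0.56 ± 0.47 and 0.17 ± 0.57 in controls and of 0.91 ± 0.49 and −0.45 ± 0.61 in ZcKO oocytes (adjusted p of 0.307 and 0.802, and 0.112 and 0.531).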

How the data were processed

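Per the labels' protocols, Smart-seq2 libraries of 5 oocytes with ERCC spike-ins were sequenced. The table deposited by the authors holds raw counts of reads per gene, as integers. The genome build mm10 and the tools HISAT2, fastp and featureCounts appear, without versions, per the submitters' processing notes. Annotation, strand setting and multi-mapping treatment were not given in the sources used here. Column names were read with C as control and T as ZcKO, and 6 further sample columns were not used. The 92 ERCC entries were kept out of library sizes and tests.

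The test was that of edgeR 4.0.16 under R 4.3.3 (TMM factors, filterByExpr, robust quasi-likelihood fit, Benjamini-Hochberg adjustment over all genes tested, threshold 0.05). Each genotype comparison used the 6 libraries of its stage, and the stage comparisons and the interaction used 1 fit of 12. The script was tested on simulated data. DESeq2 1.42.0, RLE factors, ERCC totals, no filter, other sets of libraries, a replicate block and leaving out each library were alternatives. Replicate numbers did not pair the libraries. No 2 libraries of a group agreed within sampling noise (chi-square per degree of freedom 4.87 to 43.8).

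CPM used gene totals, and per-kilobase values used GENCODE vM21 exon lengths. Symbols of 61 members matched the RefSeq table, 60 GENCODE. The members and lists were chosen with earlier results of these data known. Genes named were called members, the 3 highest in each class, Slbp and H1f8, and the 3 highest and lowest called in each list. H4c1, H2bc1, H2aw and H2bu2 were added after their values were seen, as were the sums by transcript end and the promoter pairs.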

Additional observations from a re-analysis of the deposited data

How the results depend on the processing

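Depth limits what can be said: 9 of the 61 members passed the filter on low counts in the fit of 12 libraries, and counting intervals cover counting error only. The calls of H2bc4, H4c8, H4c9 and H2bc12 in controls and of H2bc4, H4c8, H2bc12 and H2ac1 in ZcKO oocytes held whichever single library was left out. For H4c8, H4c9 and H2bc12 this adds no support, because they passed the filter on low counts through their GV libraries. In the 6 control libraries alone, H2bc12 did not pass the filter on low counts, and the other 3 were called among 6 members tested. In the 6 ZcKO libraries alone, 5 members were tested and 4 called. In genotype comparisons no histone gene was called under any alternative run.

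With ERCC totals as library sizes, the stage changes of the following genes had the opposite sign to the TMM fit. In controls the log2 values were −1.28 for H2ac1, −1.82 for H2ac6, −1.50 for H3c7, −0.61 for H4c4, −0.23 for Slbp, −1.25 for H1f8, −0.23 for Tut7, −0.20 for Casp8ap2, −0.87 for Cenpa, −0.70 for H3f3b, −0.49 for H2az1, −0.47 for Nap1l1, −0.41 for Atrx and −0.18 for Asf1b. In ZcKO oocytes they were −0.96 for H2ac1, −2.07 for H2ac6, −1.66 for H4c4, −0.92 for Slbp, −1.99 for H1f8, −0.81 for Tut7, −0.67 for Casp8ap2, −0.43 for Tut4, −1.62 for Cenpa, −1.24 for H3f3b, −0.95 for Asf1b, −0.92 for Set and −0.86 for Supt16. ERCC totals set the scale by spike-in reads, which made up a larger part of the MII libraries. The same scaling gave 8 histone genes called in each genotype, where it called 70.1% and 88% of all genes lower, 3 genes of the whole table called in the interaction, and differences between genotypes of 0.19 for H2bc4 and 0.55 for H4c8 at GV, −0.057 for H2bc4 at MII and −0.24 for H2bc4 in the interaction. It left 0.79% of the called genes higher at MII in controls and 0.90% in ZcKO oocytes, against 47.0% and 46.4% with TMM.

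Without the filter on low counts, more genes were tested, and the calls were 28 at GV, 96 at MII and 18 in the interaction. From GV to MII in controls that fit called 8 of 45 histone genes, all lower, where 17% of all genes were called lower. H2ac6 was at −0.042 there. DESeq2 called 4 genes at MII and 5 in the interaction. The fit of all 12 libraries called 3 genes at GV. For these the cause was not tested. The GV difference of H4c8, close to 0, changed sign under DESeq2 (0.0024), RLE factors (0.0011) and the fit of 12 libraries (0.0016). With 1 library left out at a time, genes called at GV ranged from 2 (without GV ZcKO 2) and 4 (without GV control 2) to 10. In the interaction they ranged from 0 (without GV ZcKO 1 or 2, MII control 2, or MII ZcKO 2 or 3) through 2 (without GV control 3 or MII control 1) to 3 (without MII control 3). At GV, the difference of H4c8 ranged from −0.32 to 0.22, and that of H4c3 from −0.047 to 0.63. At MII, H2bc4 ranged from −0.045 to 0.39 and H3c7 from −0.26 to 0.25. From GV to MII, H2ac6 ranged from −1.14 to 0.46 in controls and from −1.03 to 0.83 in ZcKO oocytes, and in ZcKO oocytes H3c7 ranged from −0.46 to 0.049 and H4c3 from −1.11 to 0.027. Alternatives other than leaving out a library changed the direction of 37 values of single genes and gene lists and left 441 with the same direction and call.

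Replicate numbers did not pair the libraries, with correlations of deviations between same-numbered libraries from −0.23 to 0.21. With the replicate block, 11 genes were called at GV, 0 at MII, 1 in the interaction, and 7272 and 7233 from GV to MII in controls and ZcKO oocytes, with 4 histone genes in each. H4c8 at GV became 0.014 and H2ac6 in controls −0.30, and the block ended no call of a histone gene.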
